A study of Mus musculus with 30 samples.

Results

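The genes described here encode the vacuolar proton pump and its accessory proteins. Members were every probe set whose platform annotation gives a single symbol beginning with Atp6, among the nuclear genes of the array. The rule took 41 of 22626 probe sets and 21 of 12393 genes. It used no measured value. By role, 12 genes encode subunits of the V1 sector (23 probe sets), 7 encode subunits of the V0 sector (14 probe sets) and 2 encode accessory proteins (4 probe sets). Probe sets for Atp6v1g3, Atp6v0d2 and Atp6v0c were not analysed here.

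The study profiled newborn mice without the orphan nuclear receptor ERRγ beside wild-type newborns, on Affymetrix MOE430A arrays, with a title on cardiac, gastric and renal potassium balance. Brain, kidney, stomach, liver and salivary tissue were each taken from both genotypes, with 3 arrays in each of 10 groups and 30 arrays in all. All mice had a mixed SV129/C57BL/6 background, standard chow and no treatment, and their sex was recorded as unknown. The null mice carried the ERRγ null genotype, and the labels name no Cre driver or allele. The 1 probe set for Esrrg, the gene of ERRγ, read 5.89 to 6.64 over the wild-type and 6.02 to 6.76 over the null arrays. In stomach it read 5.93 to 6.03 in wild-type and 6.39 to 6.56 in null arrays, higher in null without overlap. It was not lower in the null arrays, and since the deleted stretch is not described it does not check the genotype, so wild-type and null below mean arrays labelled so. Xist, the transcript of the inactive X chromosome of females, read 6.34 to 7.22 in the arrays numbered 3 of the wild-type and 1 of the null groups, in every tissue, and 10.68 to 11.38 in all the others. Each group thus held both kinds of array, and a number had the same kind in all 5 tissues of a genotype, so tissues may share animals by number. The labels do not tie arrays to animals, and the fits over 30 arrays take them as independent. The p-values below measure only the spread between these samples. These are whole-tissue RNAs, in which fewer cells of a type and less RNA per cell cannot be told apart.

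The vacuolar proton pump is a rotary machine. The cytosolic V1 sector (subunits A to H) hydrolyses ATP and turns a central shaft, and the membrane V0 sector (subunits a, c, d and e) carries protons across the membrane. The pump acidifies lysosomes, endosomes and synaptic vesicles in most cells. In intercalated cells of the renal collecting duct and in osteoclasts it also sits in the plasma membrane and secretes acid. Several subunits come in forms from separate genes. B1, C2, G3, a4 and d2 are known from intercalated cells, while B2, C1, G1, a1, a2 and d1 are found widely.

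Promoter sequences show how the genes named most often below differ at their starts. RefSeq promoters of build GRCm38.p6 were found for 16 of the 21 genes, as 17 promoters, and the 250 bases before each start were searched on both strands. The first sequence is that of Atp6v0b, which had the largest called difference in null stomach, with E-boxes (CACGTG) in capitals. The second is that of Atp6v0e2, a brain form, with the nuclear receptor half-site AGGTCA in capitals as it reads on the opposite strand. The last is that of Atp6v1b1, the intercalated-cell B subunit, with a forkhead motif (TGTTTAC) in capitals, a motif added to the search after this sequence was seen.
Atp6v0b, chr4:117887330-117887579, minus strand: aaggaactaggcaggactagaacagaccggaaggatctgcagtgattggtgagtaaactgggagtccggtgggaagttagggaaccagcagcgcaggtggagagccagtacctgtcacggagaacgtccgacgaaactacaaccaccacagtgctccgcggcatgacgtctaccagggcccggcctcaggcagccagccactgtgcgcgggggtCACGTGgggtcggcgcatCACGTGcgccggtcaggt
Atp6v0e2, chr6:48537319-48537568, plus strand: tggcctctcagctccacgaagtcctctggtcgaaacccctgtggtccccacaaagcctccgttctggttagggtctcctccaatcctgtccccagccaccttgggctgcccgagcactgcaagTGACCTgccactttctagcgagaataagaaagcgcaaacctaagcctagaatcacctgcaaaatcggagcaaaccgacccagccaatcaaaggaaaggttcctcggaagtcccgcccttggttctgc
Atp6v1b1, chr6:83742767-83743016, plus strand: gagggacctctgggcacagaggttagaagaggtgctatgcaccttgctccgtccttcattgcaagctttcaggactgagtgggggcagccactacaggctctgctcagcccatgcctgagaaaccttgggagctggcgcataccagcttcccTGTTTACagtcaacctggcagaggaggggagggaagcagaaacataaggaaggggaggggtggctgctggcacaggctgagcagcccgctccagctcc
Counted back from the start, the E-boxes of Atp6v0b began at positions -36 and -18. Another E-box began at -131 before Atp6v1a, which encodes the catalytic subunit. E-boxes were thus in 2 of 17 member promoters and in 6.02% of 32851 promoters of this length. The half-site AGGTCA was in 1 of 17 against 14.0% of all promoters, at -127 of Atp6v0e2. The longer element TCAAGGTCA, which contains that half-site and is known as a binding sequence of ERR receptors, was in 0 of 17 and in 0.387% of all promoters. The CLEAR element of the lysosomal regulator TFEB contains the E-box. It was in 0 of 17 and in 0.24% of all promoters. The forkhead motif was in 1 of 17, at -98 of Atp6v1b1, and in 3.17% of all promoters. Only exact matches were counted. Elements as rare as TCAAGGTCA and CLEAR would seldom be met in 17 promoters, so their counts of 0 decide nothing. These matches describe letters in a window and carry no evidence of binding.

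Values are the deposited log2 signals, and differences are on the same log2 scale with the standard error of the limma fit. A probe set was tested in a tissue when it averaged at least the 40th percentile of all probe sets over the 6 arrays, a level of 5.25 to 5.39. Of the 41 member probe sets, 28 passed in all 5 tissues, 4 passed in 1 to 4 tissues and 9 passed in none. The 9 include the only probe sets for Atp6v1b1, Atp6v1c2 and Atp6v1e2 (the testis form of the stalk subunit E). The other 18 genes had at least 1 tested probe set. Array medians lay between 5.80 and 6.08, and the number of arrays limits the precision.

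The wild-type tissues were compared first. Brain had the highest wild-type mean for 14 of the 18 tested genes. Kidney was highest for 3 (Atp6v1f, Atp6v0a4 and Atp6v0e) and salivary tissue for 1 (Atp6v0a2). Atp6v0a4 entered this count by passing the filter in kidney alone. Its wild-type mean was 5.32 in kidney and 5.26 in brain, so its place here is no sign that kidney stands apart. The lowest mean lay in liver for 8 genes, in salivary tissue for 5, in stomach for 4 and in brain for 1. The tissue with the highest mean was the same in wild-type and null arrays for 16 of the 18.

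In wild-type brain, 23 of 32 tested member probe sets were higher than the mean of the other 4 tissues at a limma adjusted p under 0.05, where 30.8% of all tested probe sets were. Only 1 was lower, where 31.6% of all were. Of the 32, 2 had passed the filter in a single tissue, so the count was repeated on probe sets past it everywhere: 21 of 28 members were higher against 30.5% of 10793 probe sets, and their median difference was 0.66 against 0.01. Of the V1 probe sets 14 of 17 were higher, with a median difference of 0.73. The 14 include Atp6v1b2 1419883_s_at, which passed the filter in brain alone and so lends this count no support. Of the V0 probe sets 5 of 11 were higher, with a median of 0.64. All 4 accessory probe sets were higher. The counts in brain were 23 and 1 under both other scalings of the arrays as well.

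**Figure D1:**
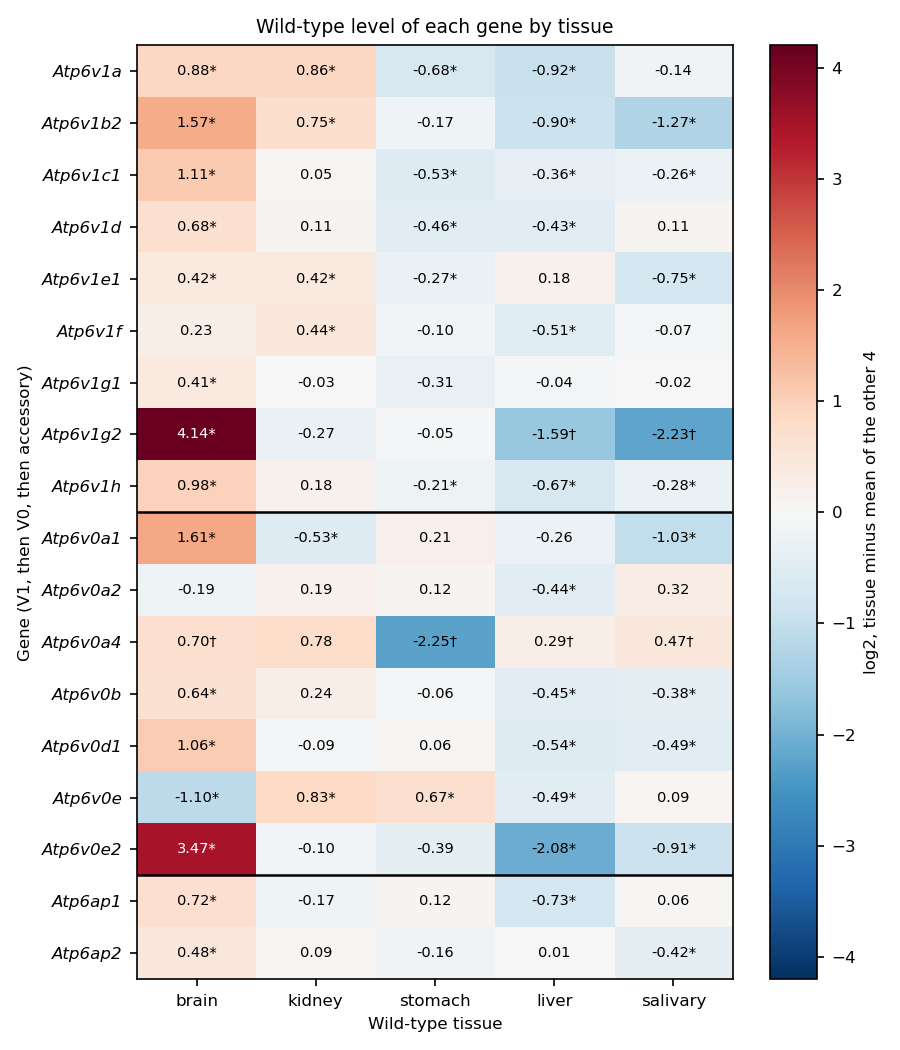
Heat map of the wild-type log2 difference of each tissue from the mean of the other 4, for the brightest probe set of each of 18 tested genes (rows, by V1, V0 and accessory class; columns, tissues; 3 arrays per group). Asterisks mark a limma adjusted p under 0.05, and daggers a tissue in which the probe set stood under the filter level; the brain column is called higher for 14 genes and lower for Atp6v0e at -1.10.

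A pair of subunit forms had the largest brain differences. Atp6v1g2 encodes the neuronal form of the stalk subunit G, and read 9.05, 9.03 and 8.75 in wild-type brain. Its other tissue means were 5.60 in stomach, 5.42 in kidney, 4.36 in liver and 3.85 in salivary tissue. The highest array of another wild-type tissue read 5.77, and the brain difference was 4.14 ± 0.29 (limma adjusted p = 3.27e-12). Its liver and salivary values lay under the filter level, so the size depends on how low values are treated: it was 3.69 with a floor of 5 and 3.07 with a pseudocount of 32. Atp6v0e2, the second form of the small membrane subunit e, read 9.58, 9.83 and 9.49 in wild-type brain. Its means elsewhere lay between 5.20 in liver and 6.78 in kidney. The brain difference was 3.47 ± 0.17, or 11.1-fold (limma adjusted p = 1.21e-15).

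The widely expressed first form of subunit e ran the other way. Atp6v0e read 8.23, 8.22 and 8.25 in wild-type brain, below every array of the other wild-type tissues. Its means there were 9.78 in kidney, 9.65 in stomach, 9.19 in salivary tissue and 8.72 in liver. The brain difference was -1.10 ± 0.10 (limma adjusted p = 2.06e-10). The G pair did not divide in that way in wild-type arrays. There the widely expressed form Atp6v1g1 was also higher in brain by 0.41 ± 0.14 at its brightest probe set (limma adjusted p = 0.0114). The same contrast in null arrays gave -0.02 at that probe set. Atp6v1g1 1423255_at gave 0.31 in wild-type arrays (limma adjusted p = 0.017) and 0.45 in null arrays.

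**Figure D2:**
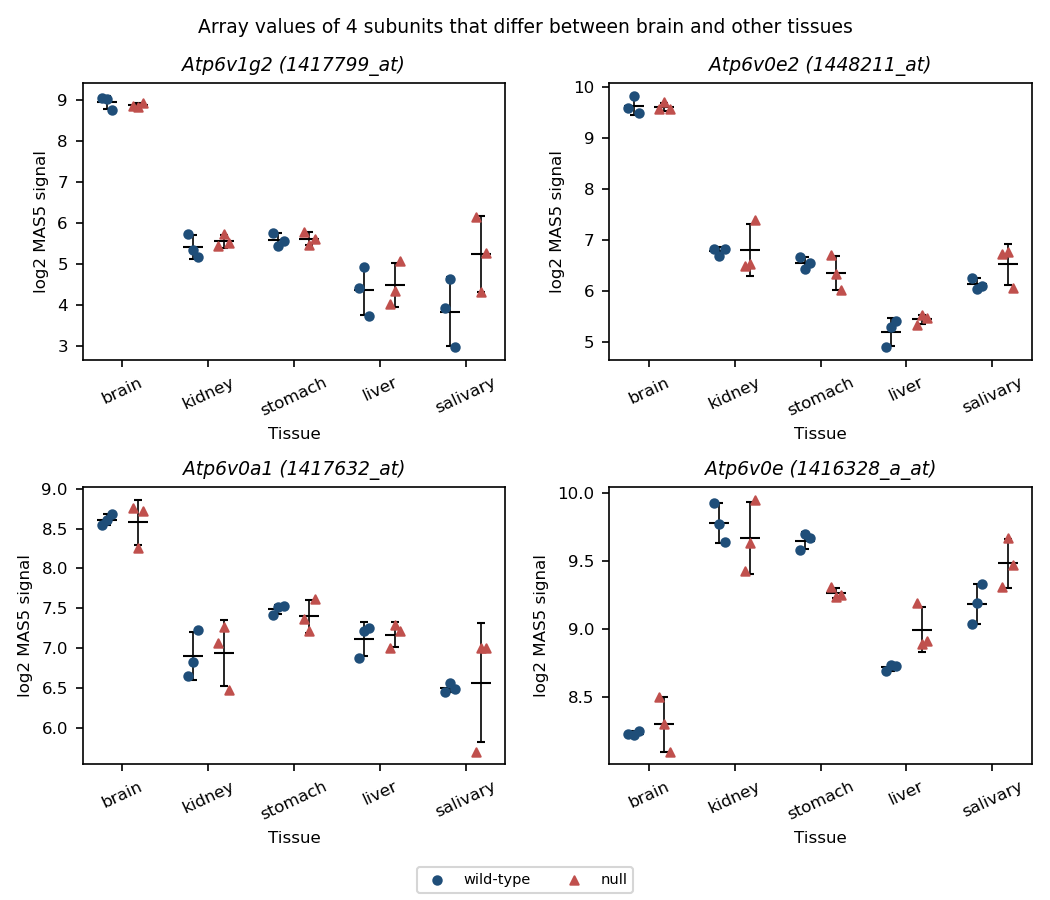
Log2 MAS5 signal (vertical axis) of Atp6v1g2, Atp6v0e2, Atp6v0a1 and Atp6v0e by tissue (horizontal axis), with 1 point per array, 3 arrays per group, and the mean with SD in black. Brain arrays stand highest for Atp6v1g2, Atp6v0e2 and Atp6v0a1 and lowest for Atp6v0e in both genotypes.

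Among the paralogs of the membrane subunit a, Atp6v0a1, the form of synaptic vesicles, had its highest mean in brain. It read 8.55, 8.61 and 8.68 there against means of 6.50 to 7.49 elsewhere, a difference of 1.61 ± 0.19 (limma adjusted p = 5.42e-08). A second Atp6v0a1 probe set, 1459924_at, gave 0.09 in brain (limma adjusted p = 0.615), so the probe sets of this gene disagree. Atp6v0a2, of Golgi and endosomes, spanned 0.60 from its highest to its lowest tissue mean. Tcirg1, which encodes the a3 form of osteoclasts and lysosomes and is not an Atp6 symbol, differed by -0.78 in brain (limma adjusted p = 4.26e-05).

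The core subunits were higher in brain by smaller amounts. The widely expressed B subunit Atp6v1b2 was higher by 1.57 ± 0.11, the C subunit Atp6v1c1 by 1.11 ± 0.09 at its brightest probe set and the ring-to-shaft link Atp6v0d1 by 1.06 ± 0.09. The regulatory subunit Atp6v1h was higher by 0.98 ± 0.08 and the catalytic subunit Atp6v1a by 0.88 ± 0.10. Each of these passed with a limma adjusted p of 3.94e-08 or below. The probe sets of Atp6v1c1 disagree, since 1419544_at gave 0.08 in brain (limma adjusted p = 0.583) and 1419546_at gave 1.22. Atp6v1f, part of the shaft, differed by 0.23 ± 0.12 in brain and did not pass (limma adjusted p = 0.0817).

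Lysosomal genes were set beside the pump. Of 35 tested lysosome genes (enzymes, membrane proteins and regulators), 24 were lower and 5 higher in wild-type brain, with a median difference of -0.51. Of 8 tested partner and assembly genes, 6 were higher and 1 lower in brain, with a median of 0.43. Rnasek, a small protein bound to the pump, was higher by 1.08 and the assembly factor Tmem199 by 0.81. The markers of neurons were 12 tested genes, with a summed log2 level of 12.98 to 13.08 in wild-type brain and at most 9.60 in the other wild-type tissues. Their part in the brain differences was not tested.

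Wild-type kidney had 11 of 32 member probe sets higher, where 22.1% of all were, and 2 lower, where 15.1% of all were. Of the V1 probe sets 8 of 17 were higher (median 0.34), and of the V0 probe sets 2 of 11 (median 0.06). Atp6v1a read 9.44, 9.27 and 9.18 in wild-type kidney, a difference of 0.86 ± 0.10 (limma adjusted p = 2.12e-07). Atp6v0e read 9.93, 9.77 and 9.64 and was higher by 0.83 ± 0.10 (limma adjusted p = 1.46e-07). Atp6v1b2 read 8.91, 8.74 and 8.84 and was higher by 0.75 ± 0.11 (limma adjusted p = 3.85e-06). For Atp6v1a the kidney and brain arrays overlapped, while for Atp6v1b2 all 3 kidney arrays lay below those of brain. Atp6v1d, part of the shaft, had 3 tested probe sets in kidney that gave 0.11, 0.42 and -0.37, the last 2 called in opposite directions. Of the lysosome genes 16 of 35 were higher and 3 lower in kidney, and of the partner genes 0 of 8 were called.

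Wild-type stomach had 1 member probe set higher, where 18.3% of all were, and 10 lower, where 19.4% of all were. The 1 was Atp6v0e, higher by 0.67 ± 0.10 (limma adjusted p = 4.41e-06). The same contrast in null arrays gave 0.15. The 10 include Atp6v0a4, which read 2.67, 3.05 and 2.97 in wild-type stomach. It passed the filter in kidney only, and its stomach values lay under the filter level of 5.35, so no difference is given here. Over probe sets past the filter in every tissue, 1 of 28 members was higher against 16.4% and 9 were lower against 18.9%. Without wild-type stomach array 1 the count of called members fell from 11 to 7.

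Wild-type liver had 20 member probe sets lower, where 38.2% of all were, and 1 higher, where 22.4% of all were. Over probe sets past the filter in every tissue the lower count was 18 of 28 against 39.4%. The median of all probe sets in the liver contrast was itself -0.16, and was -0.04 with array medians made equal, against -0.47 and -0.35 for the members. The gap between the 3' and 5' control probe sets of Gapdh, a measure of RNA integrity, also set liver apart. Its mean was 4.51 in wild-type liver, and between 2.60 in stomach and 3.24 in salivary tissue elsewhere. The part of RNA integrity in the tissue contrasts was not tested. Atp6v0e2 differed by -2.08, with brain in the mean it is set against. Wild-type salivary tissue had 15 lower, where 20.3% of all were, and 0 higher by limma (2 at an unadjusted p under 0.05), where 22.5% of all were. Atp6v1b2 differed by -1.27 there and Atp6v0a1 by -1.03. The kidney, stomach, liver and salivary contrasts all have brain in the mean they are set against, so a lower call may reflect the brain level. Atp6v1h was called lower in salivary tissue by 0.28 (limma adjusted p = 0.00587). Its wild-type mean was 8.10 there, 9.10 in brain, 8.46 in kidney, 8.15 in stomach and 7.78 in liver. Of the lysosome genes, 16 were higher and 8 lower in liver, 10 higher and 5 lower in stomach, and 2 higher and 9 lower in salivary tissue, each of 35. Of the 8 partner genes, 2 were higher and 4 lower in liver, 0 and 2 in stomach, and 3 and 1 in salivary tissue.

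The subunits known from intercalated cells were then compared across tissues and genotypes. Those measured were Atp6v1b1, Atp6v1c2 and Atp6v0a4. Atp6v1b1 encodes B1, the form whose loss causes distal renal tubular acidosis with deafness. In wild-type kidney it read 5.65, 5.08 and 5.93, and in null kidney 3.61, 3.90 and 2.67. Every null array lay below every wild-type array. In salivary tissue it read 4.15, 4.01 and 4.19 in wild-type arrays, against 3.98, 2.80 and 4.31 in null arrays, which overlap. Wild-type means were 2.01 in brain, 1.68 in stomach and 2.17 in liver, all far under the filter level.

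The kidney mean of Atp6v1b1 over both genotypes stood under the filter level of 5.39, so it was not tested with the rest. A limma fit without the filter gave -2.16 ± 0.39, which did not pass (adjusted p = 0.105). That adjusted p ranged from 0.0649 to 0.556 over 15 alternatives, and the difference from -2.43 to -0.55. An exact two-sided permutation test gave p = 0.1, the smallest that 3 against 3 arrays allow. Without the filter 0.0398% of 22626 probe sets were called higher and 0.0751% lower in null kidney, and 0 of the 41 members were called by limma (7 had an unadjusted p under 0.05). The share of all probe sets with such an unadjusted p was taken only with the filter, and was 14.8% in kidney. The 7 are thus no sign that members stand apart. The forkhead motif shown above lies before this gene. It was added to the search after that sequence was seen, and its part in these values was not tested.

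Atp6v1c2, the C form of lung and kidney epithelia, read 5.99, 5.05 and 4.93 in wild-type kidney and 4.98, 4.65 and 5.46 in null kidney. These overlap, and the difference of -0.29 did not pass (limma adjusted p = 0.79 without the filter). In stomach it read 1.92, 3.30 and 2.69 in wild-type arrays, against 4.60, 4.29 and 4.24 in null arrays, with no overlap. That difference of 1.74 had a limma adjusted p of 0.033 without the filter, and all 6 values lay under the stomach filter level of 5.35. Without the filter 5.57% of all probe sets were called higher in null stomach and 6.3% lower, with 1 and 3 of the 41 members.

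Atp6v0a4 encodes a4, also known from distal renal tubular acidosis. It read 5.40, 5.35 and 5.22 in wild-type arrays, against 5.64, 5.75 and 5.19 in null kidney, with overlap. The difference was 0.20 ± 0.21 (limma adjusted p = 0.707). Its wild-type means were 5.26 in brain, 5.08 in salivary tissue and 4.93 in liver, so kidney did not stand apart from those 3 beyond their spread. The widely expressed Atp6v1b2 read 8.91, 8.74 and 8.84 in wild-type arrays, against 9.06, 9.08 and 9.46 in null kidney. These do not overlap, but the difference of 0.37 ± 0.13 did not pass (limma adjusted p = 0.222).

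**Figure D3:**
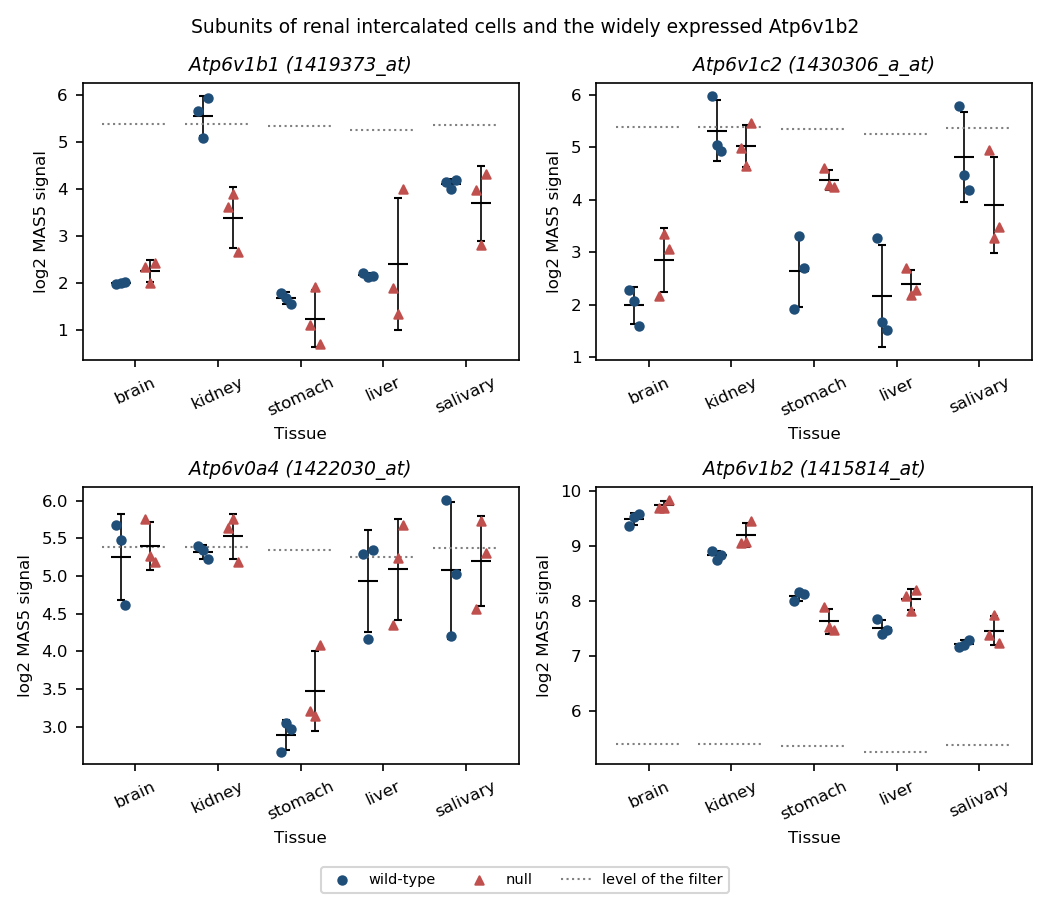
Log2 MAS5 signal (vertical axis) of Atp6v1b1, Atp6v1c2, Atp6v0a4 and Atp6v1b2 by tissue (horizontal axis), with 1 point per array, 3 per group, the mean with SD in black and the filter level of each tissue as a line. The 3 null kidney arrays of Atp6v1b1 lie between 2.67 and 3.90, below the wild-type kidney arrays at 5.08 to 5.93.

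Other markers of intercalated cells were read in the same kidneys. Of 16 listed genes 12 were measured and 7 tested; 0 were higher, 1 fell and 6 did not pass, with a median of -0.23. The one that fell was Car2, cytosolic carbonic anhydrase, by 1.28 ± 0.10 (limma adjusted p = 0.000645). Foxi1, the transcription factor of intercalated cells, had a mean of 6.23 ± 0.12 (SD, n = 3) in wild-type arrays, against 6.18 ± 0.31 in null kidney. The anion exchangers Slc4a1 and Slc26a4 differed by -0.32 and 0.41, and neither passed. Car12 differed by -0.47 (limma adjusted p = 0.141), Rhcg by -0.23 and Kit by 0.04, and none passed. Among the measured markers under the filter level, Rhbg differed by -1.32 and Insrr by -0.79. Hmx2, Dmrt2 and Hepacam2 differed by 0.34, 0.37 and 0.08. The summed log2 level of the list was 10.92 to 11.06 in wild-type arrays, against 10.37 to 10.39 in null kidney. Car2 made up 48.6% to 50.4% of that sum on the linear scale in wild-type kidney, and without it the sum was 9.92 to 10.05 in wild-type and 9.82 to 9.85 in null kidney. Of 8 tested markers of principal cells and thick limb, 1 fell (Umod, by 1.02) and the summed level was 11.99 to 12.31 against 12.04 to 12.21. The part of cell number in the Atp6v1b1 values was not tested.

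Over the 10 group means, the probe sets most like Atp6v1b1 were those of Eaf2 (Pearson r = 0.94), Fxyd2 (0.89 at 2 probe sets), Isy1 (0.89) and Rapgef3 (0.88). Those most like Atp6v0a4 were Sypl2 (0.97), Fut10 (0.96), Sfxn1 (0.94), Lipg (0.94) and Eda (0.93). These correlations describe 10 means that share arrays.

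Null and wild-type arrays were compared within each tissue. In brain 0 of 31 tested member probe sets were called by limma, where 0% of all were in either direction, and 2 had an unadjusted p under 0.05, where 10.5% of all did. In kidney 0 of 30 were called, where 0.412% of all were higher and 0.368% lower, and 3 had an unadjusted p under 0.05, where 14.8% of all did. Member differences in kidney ran from -0.24 to 0.37. In liver 0 of 29 were called, where 3.47% of all were higher and 3.46% lower, and 4 had an unadjusted p under 0.05, where 22.8% of all did. The liver median was 0.20 for members and 0.03 for all probe sets. Positive differences numbered 21 of 29 in liver against 52.9% of all probe sets, 21 of 29 in salivary tissue against 51.9%, 20 of 31 in brain against 52.1%, 19 of 30 in kidney against 51.9% and 12 of 30 in stomach against 53%. The smallest adjusted p was that of Atp6v1b2, at 7.67, 7.39 and 7.47 in wild-type arrays, against 8.08, 7.81 and 8.19 in null liver (0.52 ± 0.17, limma adjusted p = 0.0981). Without null liver array 2 the liver count was 1, and with all 30 arrays in a single fit it was 3.

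Stomach had the most calls. Of 30 tested member probe sets 3 rose and 5 fell in null stomach, where 11.2% of all rose and 12.2% fell. The 3 are close to the background share and the 5 are 16.7% of 30. The median difference was -0.09 for members and 0.03 for all. The largest was in Atp6v0b, a proteolipid of the V0 ring. Probe set 1416769_s_at read 7.42, 7.34 and 7.57 in wild-type arrays, against 6.23, 6.30 and 6.26 in null stomach. The groups stand more than 1 log2 unit apart, and the value fell by 1.18 ± 0.12 (limma adjusted p = 0.00119). The other 2 probe sets of Atp6v0b gave -0.04 and 0.08 and did not pass (limma adjusted p = 0.828 and 0.697). All 3 have names ending in s_at or x_at, which mark probes that may match further genes.

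The other 4 that fell were smaller. Atp6v1b2 read 7.99, 8.16 and 8.13 in wild-type arrays, against 7.89, 7.52 and 7.46 in null stomach and fell by 0.47 ± 0.14 (limma adjusted p = 0.0432). Atp6v1d probe set 1416952_at fell by 0.45 ± 0.12, from 8.55, 8.44 and 8.64 to 8.08, 8.25 and 7.95 (limma adjusted p = 0.03). Atp6v0e read 9.58, 9.70 and 9.67 in wild-type arrays, against 9.31, 9.24 and 9.25 in null stomach and fell by 0.38 ± 0.09 (limma adjusted p = 0.0215). In each of these no null array reached the lowest wild-type array. The probe sets of Atp6v1d disagree, since the 3 tested in stomach ran from -0.45 to 0.11 and no other passed.

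Atp6ap2, the prorenin receptor and an accessory protein of the pump, gave calls in both directions. Probe set 1423662_at fell by 0.32 ± 0.10 (limma adjusted p = 0.0456) and 1437688_x_at rose by 0.34 ± 0.10 (limma adjusted p = 0.0392). Atp6v1g1 also split, since 1423256_a_at rose by 0.37 ± 0.11 (limma adjusted p = 0.0452) and 1423255_at gave -0.29, which did not pass. Atp6v0a1 probe set 1459924_at rose by 0.46 ± 0.14, from 5.91, 5.86 and 5.92 to 6.32, 6.49 and 6.26 (limma adjusted p = 0.0446), while 1417632_at gave -0.09. Of 9 genes with at least 2 tested probe sets in stomach, 8 had differences of both signs. The same count was 7 of 10 in brain, 4 of 8 in kidney and 1 of 9 each in liver and salivary tissue.

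**Figure D4:**
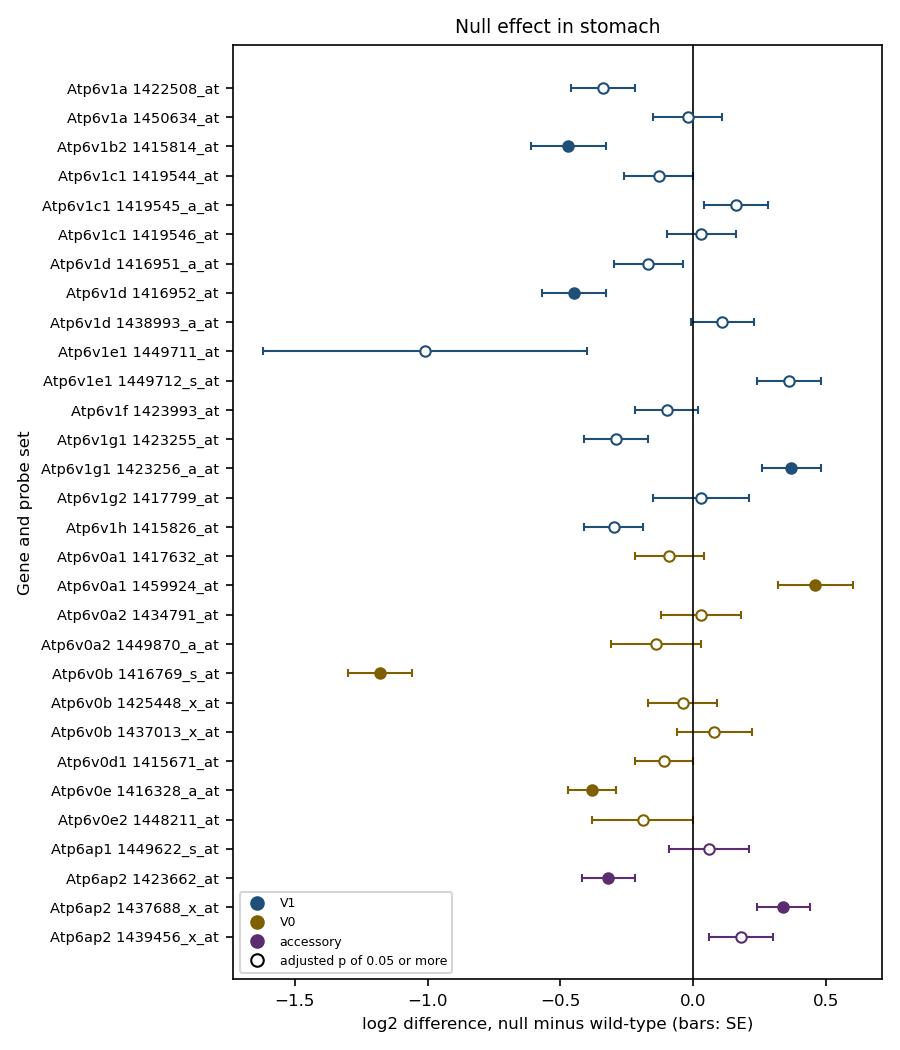
Log2 difference of null from wild-type stomach (horizontal axis, bars are SE, 3 arrays per group) for each of 30 tested member probe sets (vertical axis), coloured by class, with filled points at a limma adjusted p under 0.05. The 8 filled points run from -1.18 (Atp6v0b) to 0.46 (Atp6v0a1), and Atp6ap2 has 1 on each side of 0.

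The stomach libraries differed in measures of RNA integrity and tissue content. The gap between the 3' and 5' control probe sets of Gapdh was 2.60 ± 0.45 (SD, n = 3) in wild-type arrays, against 3.77 ± 0.22 in null stomach, and that of Actb 1.57 ± 0.42 and 2.66 ± 0.50. With the Gapdh gap as a covariate 0 member probe sets were called by limma, and Atp6v0b 1416769_s_at had a difference of -0.96 (adjusted p = 0.282, within a range of 1.23e-05 to 0.282 over 18 alternatives). The gap was 2.28 to 3.11 in wild-type and 3.53 to 3.97 in null stomach, without overlap. That fit therefore cannot tell the gap from genotype, and a loss of calls in it decides nothing. Alb, a liver transcript, read 5.93, 10.25 and 11.9 in the wild-type stomachs. With Alb as a covariate 1 was called, and with wild-type array 1 as the sole wild-type array 0. Leaving out wild-type array 1, 2 or 3 left 2, 1 and 1 calls, and leaving out null array 1, 2 or 3 left 4, 5 and 1. The split of calls was 3 higher and 5 lower as deposited, 1 and 3 after quantile normalization, and 0 and 6 with array medians made equal. The part of RNA integrity and of liver RNA in these calls was not tested.

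Cell type lists moved in the same stomachs. All 5 tested parietal cell genes fell, and Atp4a and Atp4b of the gastric proton pump fell by 5.04 and 4.81. The summed level of that list was 12.27 to 12.36 in wild-type arrays, against 9.46 to 9.65 in null stomach. Of the 5 tested chief and mucous cell genes 2 rose and 1 fell, and of 11 macrophage and osteoclast genes 2 rose and 3 fell. Of 6 tested hepatocyte genes 2 fell, and of 2 tested pancreas genes 1 fell. Of the partner and assembly genes 1 of 8 fell, and of the lysosome genes 0 of 33 were called by limma. The part of parietal cells in the values of the vacuolar pump was not tested.

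In salivary tissue 1 of 29 member probe sets rose, where 3.5% of all did, and 0 fell by limma, where 4.72% of all did. At an unadjusted p under 0.05, 6 were higher and 0 lower, where 23.5% of all passed in either direction. The 1 was Atp6v1g1 1423255_at, which read 8.09, 7.90 and 7.63 in wild-type arrays, against 8.64, 8.36 and 8.55 in null tissue and rose by 0.64 ± 0.16 (limma adjusted p = 0.0431). Its other tested probe set gave 0.04. Leaving out wild-type array 2 or 3, or null array 1 or 3, left 0 calls, and leaving out null array 2 left 3. Ucp1, of brown fat, read from 4.04 to 12.14 in wild-type and had a mean of 11.69 ± 0.93 in null salivary tissue. Of 5 tested brown fat genes 0 were called (median 3.20), and of 4 tested salivary gland genes 1 fell. With Ucp1 as a covariate Atp6v1g1 gave 0.85 (limma adjusted p = 0.0792, within 0.00193 to 0.144 over 17 alternatives). Of the lysosome genes 5 of 35 rose in null salivary tissue: Cln3 by 1.08, Npc1 by 0.76, Ctsd by 0.63, Ctsl by 0.57 and Psap by 0.46.

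Averaged over the 5 tissues in a fit of all 30 arrays, 6 of 32 member probe sets were higher in null arrays, where 11.4% of all were, and 0 were lower by limma (0 at an unadjusted p under 0.05), where 11.1% of all were. The stalk subunit Atp6v1e1 rose by 0.24 ± 0.05 at 1449712_s_at (limma adjusted p = 0.00218) and Atp6v1c1 by 0.22 ± 0.05 at 1419545_a_at (limma adjusted p = 0.002). Atp6v0b 1437013_x_at rose by 0.20, Atp6v1b2 by 0.18, Atp6ap2 1439456_x_at by 0.16 and Atp6v0d1 by 0.14. Atp6v1c1 1419545_a_at did not pass in any tissue alone, and the other tested probe sets of the gene averaged -0.03 and 0.06 (limma adjusted p = 0.825 and 0.468). The other probe sets of Atp6v0b averaged -0.04 and 0.09 and did not pass. Those of Atp6ap2 averaged -0.05 and 0.11 (limma adjusted p = 0.63 and 0.0652). Atp6v1e1 1449711_at averaged 0.22 (limma adjusted p = 0.629) and Atp6v1b2 1419883_s_at averaged -0.08 (limma adjusted p = 0.761). Atp6v1b2 1415814_at, the probe set called here, gave -0.47 in stomach, so its average joins differences of both signs. Over 38 alternatives the calls of Atp6v1e1 and Atp6v1c1 were kept in 38, those of Atp6v0b and Atp6ap2 in 37, that of Atp6v1b2 in 27 and that of Atp6v0d1 in 15. With array number within genotype as a random block 4 were called, and Atp6v1b2 and Atp6v0d1 did not pass. With array medians made equal 2 of the 6 calls were left.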

How the data were processed

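Total RNA was hybridized to 30 single-colour arrays. The authors deposited log2 values, one per probe set and array, made with MAS5 per the submitters' processing notes; the sources used here give neither version nor scaling target. They were used as given after 64 array controls were set aside. Depth does not apply to arrays, and neither labels nor file give a scan batch. GEO's platform annotation named 20380 probe sets with 1 symbol and 691 with several, and left 1555 unnamed; the brightest probe set over 30 arrays stood for a gene. limma 3.58.1 (R 4.3.3; lmFit, eBayes with a mean-variance trend) was fitted to the 6 arrays of each tissue over all probe sets past the filter, and to all 30 arrays for the average effect, the difference between tissues and the wild-type tissue contrasts, with Benjamini-Hochberg adjustment at 0.05. Scripts were tested on simulated data. The text names members that passed, the intercalated-cell forms with their paralogs and the top 3 higher members per wild-type tissue. It also names every measured intercalated-cell marker in kidney and a few genes of the other lists. Members and lists were chosen with earlier results of these data known; the forkhead motif and the null-array tissue contrasts were added after the data were seen. Replicate numbers did not pair wild-type with null arrays; number within genotype was tried as a random block over the 30 arrays (consensus correlation 0.03). Other scalings, filters, floors, covariates, blocks and left-out arrays were tried.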

Additional observations from a re-analysis of the deposited data

Results flagged for a closer look

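The null effect differed between the 5 tissues for 6 of 32 tested member probe sets, by the F test of the genotype-by-tissue interaction in limma over 30 arrays, where 15.3% of all probe sets did. The smallest adjusted p was that of Atp6v0b 1416769_s_at (4.91e-05), whose null differences were -1.18 in stomach, -0.13 in brain, 0.13 in kidney, 0.36 in liver and 0.63 in salivary tissue. Atp6v1g1 1423255_at (limma adjusted p = 0.00648) gave -0.29 in stomach and 0.64 in salivary tissue. Atp6v1b2 1415814_at (limma adjusted p = 0.00654) gave -0.47 in stomach against 0.25 in brain, 0.37 in kidney, 0.52 in liver and 0.24 in salivary tissue. Atp6v1d 1416952_at (limma adjusted p = 0.00945) gave -0.45 in stomach and 0.23 in liver. Atp6v0e (limma adjusted p = 0.0261) gave -0.38 in stomach and 0.30 in salivary tissue. Atp6v1d 1438993_a_at (limma adjusted p = 0.0375) gave -0.32 in brain and 0.45 in liver, so these 2 probe sets of the gene did not take the same tissue as their lowest. The other 2 tested probe sets of Atp6v0b did not pass this F test (limma adjusted p = 0.2 and 0.91). Neither did Atp6v1g1 1423256_a_at (0.192), Atp6v1b2 1419883_s_at (0.282) or Atp6v1d 1416951_a_at (0.453). The null stomach arrays had the wider Gapdh gap given above, and its part in these differences was not tested.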

How the results depend on the processing

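None of the single probe set differences followed through the alternatives changed sign. The median null difference of members in kidney did, from 0.03 as deposited to -0.03 with array medians made equal. The stomach count of 8 called member probe sets was 4 after quantile normalization, 4 without the filter, 4 without the mean-variance trend, 1 with the replicate block, 1 with Alb as a covariate, 0 with the Gapdh gap as a covariate and 0 with a single wild-type array; leaving out 1 array gave 1 to 5. Atp6v0b 1416769_s_at kept its call in 16 of 18 alternatives, between -1.23 and -0.92. The salivary count of 1 was 2 with a floor of 5, 2 with a pseudocount of 32, 2 with the filter at the 60th percentile and 5 in the fit over all 30 arrays. It was 0 with equal array medians, without the filter, without the trend and with the Gapdh covariate, and 0 to 3 with 1 array left out. The liver count of 0 was 3 in the fit over all 30 arrays and 0 to 1 with 1 array left out. The average count of 6 was 2 with equal array medians. The wild-type stomach count of 11 was 7 to 13 with 1 array left out. Same-numbered wild-type and null arrays had deviations correlated between -0.24 and 0.14, and 7 of 30 arrays correlated best with their own number, so the replicate block within a tissue is given only here; its adjusted p for the salivary Atp6v1g1 call was 0.0889. The causes were not tested. The split of calls over all probe sets moved with equal medians from 52.8% to 33.8% higher in kidney and from 50.6% to 39.0% in the average. Probe sets under the filter level, such as that of Atp6v1b1, were not tested with the rest.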
